A study of Mus musculus with 4 samples.

Results

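The 35 genes described here encode the transporters and enzymes that carry glucose to pyruvate and lactate, together with further genes known to respond to low oxygen. They were chosen by name and comprised 21 glycolysis genes, 12 other target genes of the hypoxia-inducible factors (Hif), and Hif1a and Epas1, which encode the oxygen-regulated subunits of the factors themselves. A gene was measured where the array's gene table gave it a probe set with 1 gene symbol, and the brightest such probe set stood for the gene. This held for 33 of the 35 genes, out of 19938 genes measured in all. Gpi1, the glucose phosphate isomerase, and Eno1, the ubiquitous enolase, were not analysed here.

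RNA came from Py2T cells, a breast cancer line established from a mammary tumour of a mouse carrying the polyoma middle T oncogene, and was hybridised to 4 Affymetrix arrays. The groups were 2 samples left untreated and 2 samples given TGFβ at 2 ng/ml for 5 days, a treatment under which this line is known to pass from an epithelial to a mesenchymal form. Both groups shared the line and the serum-containing medium, and the labels name neither an altered gene nor an oxygen level. Being bulk RNA of 1 cell line, the values cannot tell fewer expressing cells from less RNA per cell. All levels are RMA values on the log2 scale as the authors deposited them, and array medians lay between 6.742 and 6.756. Of 6 epithelial markers the untreated means were 10.83 to 13.52, with 0 called higher and 3 called lower after TGFβ, while 4 leukocyte, 4 endothelial and 3 adipocyte markers had means of 4.95 to 6.91 over both groups with 0 calls.

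Glycolysis splits glucose into pyruvate in the cytosol, and lactate dehydrogenase turns pyruvate into lactate when it is not passed to mitochondria. Several steps can be run by more than 1 isoenzyme, each from its own gene, and tumour cells often carry a mix of them. When oxygen falls, prolyl hydroxylases of the Egln family stop marking Hif proteins for destruction, and the stabilised factors switch on glycolytic genes along with genes for acid balance, mitophagy and vessel growth. Hif is therefore regulated largely at the protein level, which expression arrays do not read.

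Glycolysis and hypoxia genes went both ways after TGFβ. Pfkfb3, which makes the strongest activator of phosphofructokinase, rose 2.62-fold, hexokinase Hk2 rose 2.09-fold, the phosphofructokinase isoenzyme Pfkp rose 1.97-fold and the prolyl hydroxylase Egln3 rose 1.63-fold. The aldolase Aldoc was 5.56-fold lower, the Hif-induced carbonic anhydrase Car9 3.41-fold lower and the mitophagy gene Bnip3 2.79-fold lower. Bnip3 fell by less on its second probe set. In limma's moderated test 4 of the 33 genes were called higher and 9 lower at an adjusted p under 0.05, where 13.6% of all 19938 genes were called, 6.49% higher and 7.15% lower. Called with a difference of at least 2-fold were 8 of the 33 genes and 3.4% of all 19938 genes. Bright genes were called more often, and 29 of the 33 had a mean of at least 7, a level just above the array medians. Of all 10689 genes that bright 22.4% were called, against 11 of these 29.

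The glycolysis genes were 3 higher, 4 lower and 12 not passed among 19 measured, with a median difference of -0.077 (TGFβ minus untreated, log2). The other Hif targets were 1 higher, 4 lower and 7 not passed among 12, with a median of -0.18. The median over all 19938 genes was 0.0097. Both TGFβ arrays lay on the same side of both untreated arrays for 28 of the 33 genes and for 52.6% of all genes. That share was not taken among bright genes alone. Both means were under 7 for 9022 of all 19938 genes, against 3 of the 33. The gap between the 2 arrays of a group had a median of 0.10 in either group, and it exceeded 0.5 in at least 1 group for 3 genes, Aldoc, Ldhb and Eno2.

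**Figure D1:**
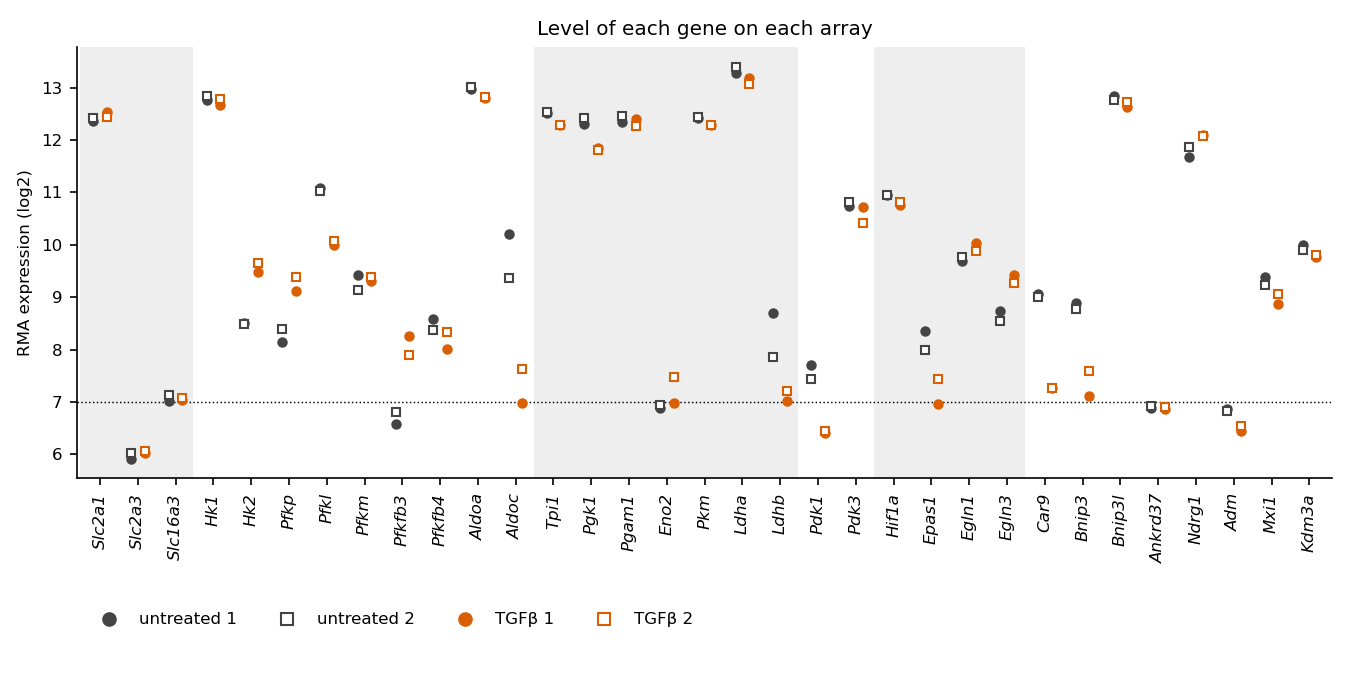
Level of each of the 33 genes on each array (RMA, log2, vertical axis), grouped by role with alternating shading; filled circles are replicate 1 and open squares replicate 2, dark grey for untreated and orange for TGFβ. The dotted line marks 7; Aldoc, Car9 and Bnip3 drop towards it after TGFβ, and Pfkfb3 rises from below it.

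**Figure D2:**
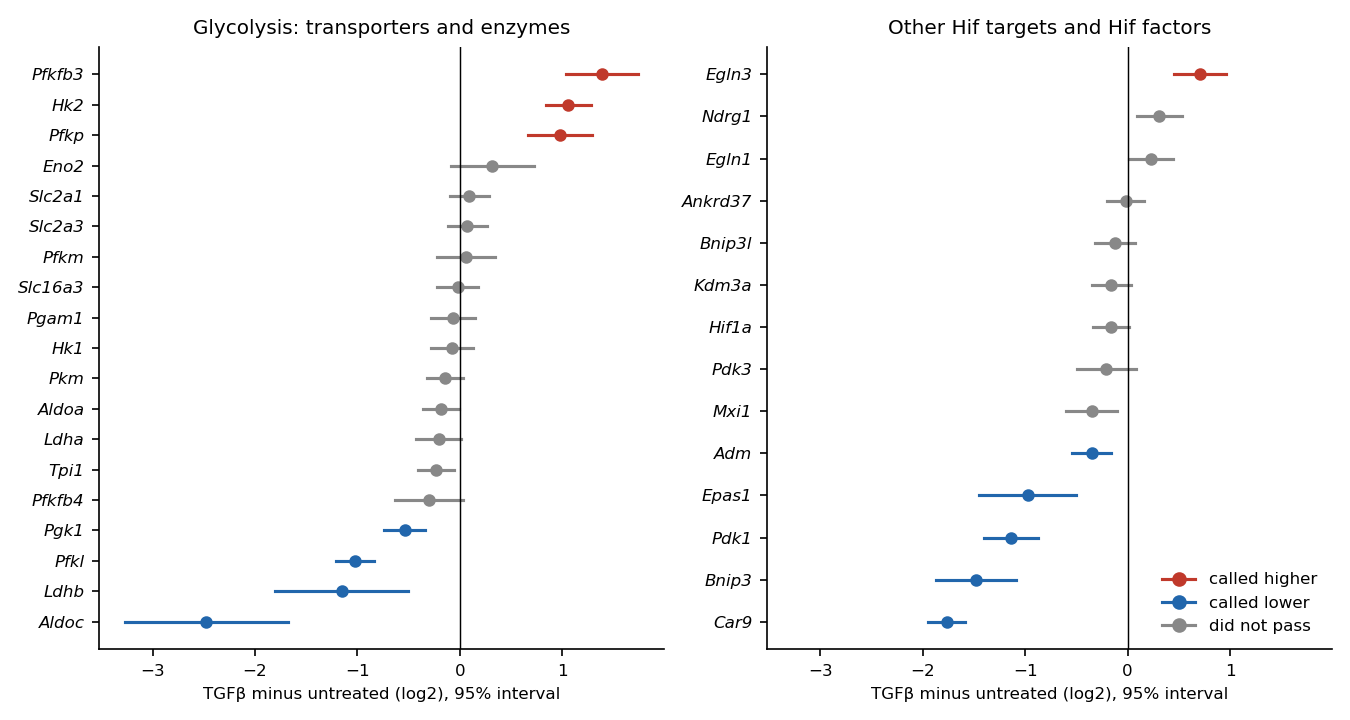
Difference TGFβ minus untreated (log2, horizontal axis) with the 95% interval of the fit, for 19 glycolysis genes on the left and for 12 other Hif targets with Hif1a and Epas1 on the right. Red points were called higher and blue points lower in limma at an adjusted p under 0.05; the 4 genes called higher lie between 0.71 and 1.39.

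The promoters of 6 of the genes that were called are shown, of which 3 fell and 3 rose. Hif proteins are known to bind a short core, ACGTG or GCGTG, in such regions. The 6 do not stand for all called genes. The 3 shown that fell each hold ACGTG. In the promoters of Aldoc, Pdk1, Pfkl, Ldhb and Adm, also called lower but not shown, only GCGTG was found. Pfkfb3, which had the largest rise, is not shown either. Each sequence is the 250 bases before the annotated start in RefSeq, build GRCm38.p6, read 5′ to 3′ along the gene. Capitals mark the core in either orientation, so that CACGT and CACGC are the cores on the opposite strand, and the forward and reverse cores overlap where CACGTG appears. Car9 is read from chr4:43506776-43507025 (plus strand), Bnip3 from chr7:138909507-138909756 (minus strand) and Pgk1 from chrX:106186850-106187099 (plus strand). Hk2 is read from chr6:82774455-82774704 (minus strand), Pfkp from chr13:6648772-6649021 (minus strand) and Egln3 from chr12:54203875-54204124 (minus strand). The first 3 lines are genes that fell and the last 3 are genes that rose.
Car9: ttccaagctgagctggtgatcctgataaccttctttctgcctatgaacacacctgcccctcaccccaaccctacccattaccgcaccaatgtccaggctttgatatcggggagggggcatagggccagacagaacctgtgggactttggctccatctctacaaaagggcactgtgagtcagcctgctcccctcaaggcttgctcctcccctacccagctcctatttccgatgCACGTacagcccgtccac
Bnip3: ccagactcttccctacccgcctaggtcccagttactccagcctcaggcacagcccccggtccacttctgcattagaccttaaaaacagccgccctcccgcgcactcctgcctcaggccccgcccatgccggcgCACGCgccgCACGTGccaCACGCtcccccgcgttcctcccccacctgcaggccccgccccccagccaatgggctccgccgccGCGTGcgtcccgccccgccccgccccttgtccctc
Pgk1: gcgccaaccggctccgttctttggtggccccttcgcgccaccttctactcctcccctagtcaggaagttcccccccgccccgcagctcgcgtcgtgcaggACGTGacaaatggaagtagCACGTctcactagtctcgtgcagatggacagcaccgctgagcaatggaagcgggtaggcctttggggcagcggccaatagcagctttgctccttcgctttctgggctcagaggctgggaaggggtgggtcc
Hk2: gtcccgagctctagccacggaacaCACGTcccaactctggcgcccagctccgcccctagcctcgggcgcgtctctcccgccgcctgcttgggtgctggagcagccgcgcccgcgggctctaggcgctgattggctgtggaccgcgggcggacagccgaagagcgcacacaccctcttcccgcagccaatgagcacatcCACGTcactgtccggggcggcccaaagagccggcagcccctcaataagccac
Pfkp: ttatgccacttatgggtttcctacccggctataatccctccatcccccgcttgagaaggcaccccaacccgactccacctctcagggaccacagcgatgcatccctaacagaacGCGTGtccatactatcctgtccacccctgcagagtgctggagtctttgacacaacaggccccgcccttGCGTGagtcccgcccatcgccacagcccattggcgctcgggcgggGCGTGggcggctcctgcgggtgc
Egln3: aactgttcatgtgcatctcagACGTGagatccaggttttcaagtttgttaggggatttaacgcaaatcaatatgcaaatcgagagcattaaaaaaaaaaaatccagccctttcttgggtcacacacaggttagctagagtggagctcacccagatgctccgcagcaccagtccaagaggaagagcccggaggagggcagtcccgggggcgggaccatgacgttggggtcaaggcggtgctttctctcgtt

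The core was found in both sets. Car9 has 1 match, beginning 18 bases before the start, Pgk1 has 2 and Bnip3 has 5, of which 2 overlap. Among the genes that rose, Hk2 has 2, Pfkp 3 and Egln3 1, the last beginning 229 bases before the start. RefSeq promoters were at hand for 29 of the 33 genes, in 44 windows because some genes have several starts, and 34 windows (77.3%) hold at least 1 core. Of all 32851 promoter windows of this length 38.6% do. The windows of these genes are richer in G and C, with a median of 60.4% against 52.4% over all windows, and both cores contain CG. At least 1 window with a core belonged to 4 of 4 genes called higher, 8 of 8 called lower and 15 of 17 that did not pass. A match is a string of letters and was not tested for binding. Slc2a3, Bnip3l, Ndrg1 and Epas1 are not among the promoters used here.

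Among the 35, glucose entry and lactate exit showed 0 calls in 3 genes. Slc16a1, a lactate and pyruvate carrier outside the 35, was called lower and is given below. Slc2a1, which encodes the widespread glucose transporter of the plasma membrane, measured 12.36 and 12.43 in untreated cells and 12.53 and 12.44 after TGFβ, a difference of 0.09 (95% interval -0.10 to 0.28). The groups lie next to each other without overlapping, and the interval covers no rise above 0.28 on the log2 scale. Slc2a3, the transporter prominent in neurons, measured 5.91 to 6.06 on all arrays, and Slc16a3, the lactate exporter typical of glycolytic cells, measured 7.02 to 7.14 with overlapping groups. The 95% intervals of the difference were -0.12 to 0.27 for Slc2a3 and -0.22 to 0.17 for Slc16a3.

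The hexose steps held most of the changes in glycolysis, with 3 genes higher, 2 lower and 4 not passed among 9 measured. Hk2, the inducible hexokinase that traps glucose as its phosphate, measured 8.51 and 8.49 in untreated cells and 9.47 and 9.65 after TGFβ. Its groups stand far apart compared with their spread, and the difference was 1.06 ± 0.09 (SE, adjusted p = 0.0017). Hk1, the constitutive hexokinase, measured 12.76 and 12.85 against 12.67 and 12.78, with overlapping groups and a difference of -0.08 (95% interval -0.28 to 0.12). The brightest Hk1 probe set is listed with 1 accession and 0 RefSeq transcripts, whereas its other probe set carries 4 RefSeq accessions. That second probe set gave nearly the same answer, with 10.85 and 10.75 in untreated cells, 10.74 on both TGFβ arrays and a difference of -0.07. A further 16 probe sets list Hk1 beside other genes and were not used.

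The 3 genes for phosphofructokinase, the committed step of glycolysis, separated. Pfkl, the liver-type isoenzyme, measured 11.09 and 11.02 in untreated cells and 10.00 and 10.07 after TGFβ, and it fell by 1.02 on the log2 scale (SE 0.08, adjusted p = 0.0013). Pfkp, the platelet type, measured 8.15 and 8.40 against 9.12 and 9.38, and it rose by 0.98 ± 0.13 (adjusted p = 0.0067). Pfkm, the muscle type, measured 9.43 and 9.14 against 9.31 and 9.38, with the TGFβ values inside the untreated range and a difference of 0.06 (95% interval -0.22 to 0.34). Within each array the log2 signal of Pfkp relative to that of Pfkl shifted by 2.00 between the groups, and that of Pfkm relative to Pfkl by 1.08. These shifts describe unequal change of the isoenzyme RNAs and say nothing of which RNA was more abundant, because probe sets differ in brightness.

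Pfkfb3 and Pfkfb4 encode enzymes that make and break a regulatory fructose bisphosphate, the signal that turns phosphofructokinase on. It is not the bisphosphate that aldolase cleaves. Both genes are known Hif targets. Pfkfb3 measured 6.59 and 6.80 in untreated cells and 8.27 and 7.91 after TGFβ, a rise of 1.39 ± 0.14 (adjusted p = 0.0033). It ranked 187th among all 19938 genes by the size of its rise, and its untreated mean was under 7. Pfkfb4 measured 8.57 and 8.38 against 8.01 and 8.34, with a difference of -0.30 that did not pass (adjusted p = 0.23). The within-array signal of Pfkfb3 relative to Pfkfb4 shifted up by 3.24-fold.

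Aldolase cleaves the hexose into trioses. Aldoc, the isoenzyme known from brain, showed the largest difference of the 33 genes, from 10.20 and 9.36 in untreated cells to 6.98 and 7.63 after TGFβ. It fell by 2.48 (SE 0.32, adjusted p = 0.0070), the 33rd largest fall of all genes measured. The 2 arrays of either group differed by more than 0.5, but the lowest untreated value was well above the highest TGFβ value. Aldoa, the main aldolase of most tissues, measured 12.98 and 13.01 against 12.80 and 12.82. Its groups were tight and apart, yet the difference of -0.18 did not pass (adjusted p = 0.17). Relative to Aldoa on the same array, Aldoc shifted down by 4.90-fold.

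**Figure D3:**
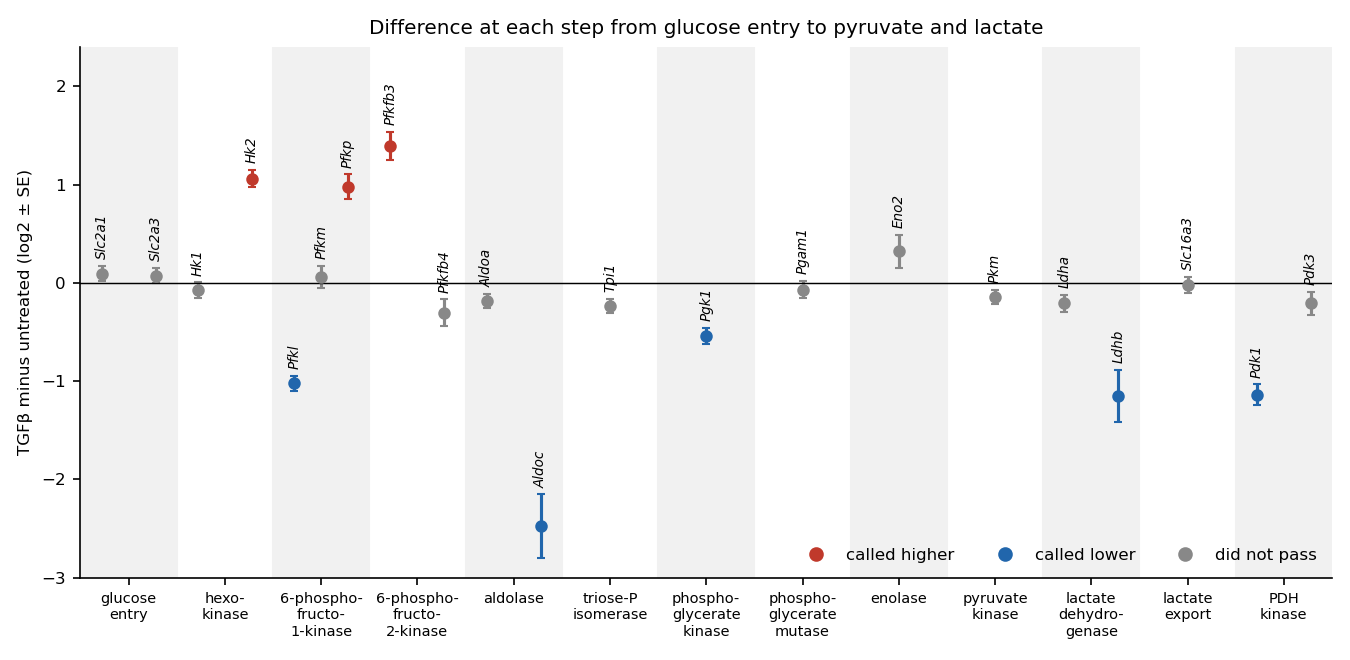
Difference TGFβ minus untreated (log2, points, with bars of 1 SE) for measured genes along the steps from glucose entry to lactate. The kinases of pyruvate dehydrogenase (PDH) are also shown. The steps of glucose phosphate isomerase (Gpi1) and glyceraldehyde phosphate dehydrogenase (Gapdh) are missing, because neither gene was analysed. Red was called higher, blue lower and grey did not pass; genes called higher appear at the hexokinase and phosphofructokinase steps (Hk2, Pfkp, Pfkfb3), and from aldolase onward the called genes are lower.

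Of the 35 genes, those of the triose steps and lactate production were 0 called higher, 2 called lower and 5 not passed among 7 measured. Negative differences made up 6 of the 7. Eno3, an enolase outside the 35, was called higher and is given below. Pgk1, which makes the first ATP of the pathway, measured 12.31 and 12.43 in untreated cells and 11.85 and 11.81 after TGFβ, and it fell by 0.54 (SE 0.08, adjusted p = 0.010). The 3 Pgk1 probe sets gave differences of -0.54, -0.54 and -0.51. However, 2 of them hold the same values to the decimals printed, and the other is close to them on every array. They are therefore not separate readings of the fall. The Pgk1 call was lost without untreated replicate 2, at -0.48 and an adjusted p of 0.054. Tpi1, the triose isomerase, measured 12.52 and 12.53 against 12.30 and 12.29, a difference of -0.23 that did not pass (adjusted p = 0.094) and that passed only in a fit with robust variances and an intensity trend, at 0.037. Pgam1, the phosphoglycerate mutase, showed overlapping groups on its brightest probe set, from 12.28 to 12.47, with a difference of -0.07.

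Eno2, the neuronal enolase, measured 6.89 and 6.94 in untreated cells and 6.98 and 7.49 after TGFβ. The first TGFβ value lay just above the untreated arrays and the second well above, and the difference of 0.32 did not pass (adjusted p = 0.31), while without TGFβ replicate 1 it was 0.57 with an adjusted p of 0.025. Pkm, a pyruvate kinase gene, measured 12.42 and 12.44 against 12.29 and 12.28, a difference of -0.14 (95% interval -0.32 to 0.03). Ldha, the lactate dehydrogenase subunit favoured in hypoxic cells, measured 13.27 and 13.40 against 13.19 and 13.07, a difference of -0.21 (95% interval -0.42 to 0.01). Neither passed.

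Ldhb, the subunit typical of oxidative tissues, measured 8.69 and 7.85 in untreated cells and 7.02 and 7.22 after TGFβ. The untreated arrays were far apart, although both lay above the TGFβ arrays, and Ldhb fell by 1.15 (SE 0.26, adjusted p = 0.041). A second Ldhb probe set measured 7.39 and 7.05 against 6.30 and 6.82 and did not pass, at -0.66 and an adjusted p of 0.098. The call thus rests on the brighter probe set, and whether that one reads Ldhb alone was not tested. Leaving out either TGFβ array ended the call, at -1.05 without the first (adjusted p = 0.14) and -1.25 without the second (adjusted p = 0.082). The size rested on the untreated arrays, at -0.73 without the first and -1.57 without the second, both still called.

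Of the kinases that shut pyruvate dehydrogenase and so keep pyruvate out of mitochondria, Pdk1, a Hif target, measured 7.70 and 7.43 in untreated cells and 6.41 and 6.45 after TGFβ. It fell by 1.14 (SE 0.11, adjusted p = 0.0024), to a mean under 7. Pdk3 measured 10.74 and 10.81 against 10.72 and 10.41, with a difference of -0.21 that rested largely on TGFβ replicate 2 and did not pass (adjusted p = 0.36).

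Among the oxygen sensors and the factors 1 gene was called higher, 1 lower and 2 did not pass. Egln3, a prolyl hydroxylase that is itself induced by Hif, measured 8.74 and 8.54 in untreated cells and 9.42 and 9.27 after TGFβ, a rise of 0.71 ± 0.10 (adjusted p = 0.0097). Egln1, the main oxygen sensor of the family, measured 9.70 and 9.77 against 10.04 and 9.89, a difference of 0.23 (95% interval 0.02 to 0.44, adjusted p = 0.16). Hif1a measured 10.95 on both untreated arrays and 10.76 and 10.81 after TGFβ, a difference of -0.16 (95% interval -0.34 to 0.02). Epas1, which encodes the Hif2 alpha subunit, measured 8.35 and 7.99 against 6.95 and 7.43 and fell by 0.98 (SE 0.19, adjusted p = 0.026). Epas1 no longer passed when either replicate 1 array was left out, at -0.79 without the untreated one (adjusted p = 0.087) and -0.74 without the TGFβ one (adjusted p = 0.061).

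The remaining Hif targets were 0 higher, 3 lower and 5 not passed among 8. Car9, the membrane carbonic anhydrase used to stain hypoxic tumour areas, measured 9.06 and 9.01 in untreated cells and 7.27 and 7.26 after TGFβ. It had the smallest adjusted p of the 33 genes, with a fall of 1.77 (SE 0.07, adjusted p = 2.8e-04), and its replicates nearly coincided in both groups. Bnip3, a mitochondrial receptor for mitophagy, measured 8.89 and 8.78 against 7.12 and 7.59 and fell by 1.48 (SE 0.16, adjusted p = 0.0038). Its second probe set measured 8.27 and 7.81 against 7.28 and 7.27 and was lower by a smaller amount, -0.76 (adjusted p = 0.031). Whether either probe set reads Bnip3 alone was not tested. Bnip3l, a close relative with the same role, measured 12.85 and 12.77 against 12.63 and 12.74, a difference of -0.13 (95% interval -0.32 to 0.07). Its second probe set differed by -0.18, also without passing.

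Adm, the precursor of the vessel-widening peptide adrenomedullin, measured 6.87 and 6.82 in untreated cells and 6.45 and 6.54 after TGFβ, and it was called lower by 0.35 (SE 0.08, adjusted p = 0.037). Both means were under 7, and the call was lost when any 1 of the 4 arrays was left out (adjusted p of 0.059 to 0.18). Ankrd37, another Hif target, measured 6.88 to 6.93 on all arrays. Mxi1, a repressor that opposes Myc, measured 9.38 and 9.24 against 8.86 and 9.06, a difference of -0.35 (95% interval -0.60 to -0.10, adjusted p = 0.081). Ndrg1, a stress-induced gene often used as a hypoxia marker, measured 11.68 and 11.87 against 12.09 and 12.07, a difference of 0.31 (adjusted p = 0.081) that passed only in a fit with robust variances and an intensity trend, at 0.039. Kdm3a, a histone demethylase induced by Hif, measured 10.00 and 9.89 against 9.77 and 9.80, a difference of -0.16 (adjusted p = 0.28).

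Further genes of the same pathways, outside the 35, were also mixed. Of 21 other glycolysis genes measured 3 were higher, 4 lower and 14 did not pass (median 0.038). The share called was 33.3%, against 13.6% of all genes and 22.4% of all genes with a mean of at least 7. The phosphoglucomutase Pgm2 rose by 0.72 (adjusted p = 0.0056) and the ADP-dependent glucokinase Adpgk rose by 0.64 (adjusted p = 0.0085). These were the 2 genes of that list that stayed called under every alternative that tested them. The muscle enolase Eno3 rose by 0.66 (adjusted p = 0.018), which no longer passed when untreated replicate 1 was left out (adjusted p of 0.065) or TGFβ replicate 2 (0.061). Pfkfb2, a relative of Pfkfb3, fell by 0.48 (adjusted p = 0.012), which no longer passed when untreated replicate 1 (0.065) or 2 (0.056) was left out. The lactate and pyruvate carrier Slc16a1 fell by 0.49 (adjusted p = 0.032), and its adjusted p was 0.13 when untreated replicate 2 was left out, 0.057 for TGFβ replicate 1 and 0.10 for TGFβ replicate 2. Pgm1, the partner phosphoglucomutase, fell by 0.38 (adjusted p = 0.041) and the bisphosphoglycerate mutase Bpgm fell by 0.50 (adjusted p = 0.048). The Pgm1 call was lost when any 1 array was left out (adjusted p of 0.070 to 0.20), and that of Bpgm had an adjusted p of 0.17 or 0.13 when untreated replicate 1 or 2 was left out, 0.10 for TGFβ replicate 1 and 0.061 with repeated quantile normalization (-0.45).

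Of 45 other hypoxia response genes measured 7 were higher, 7 lower and 31 did not pass (median 0.026), a share called of 31.1%. Vegfa, the vessel growth factor, measured 10.77 and 10.55 in untreated cells and 12.13 and 12.14 after TGFβ, a 2.78-fold rise (adjusted p = 8.6e-04). Plod2, which hydroxylates collagen lysines, measured 8.50 and 8.68 against 10.78 and 10.06 and rose 3.57-fold (adjusted p = 0.0063). Hmox1, the heme oxygenase, rose 2.30-fold and the kinase gene Pim1 2.09-fold. Among the falls, the adenylate kinase Ak4 (-1.04) lost its call with the mean of its probe sets (-0.53, adjusted p = 0.073) and when untreated replicate 2 was left out (0.056). Narf fell by 0.82 (adjusted p = 0.016), which no longer passed when TGFβ replicate 1 (0.0504) or 2 (0.054) was left out. Insig2, which restrains sterol synthesis, fell by 0.82 (adjusted p = 0.026), which no longer passed when untreated replicate 1 was left out (0.099). The transcriptional repressor Bhlhe41 fell by 1.30 with an adjusted p of 0.049, from 8.95 and 8.02 to 6.96 and 7.42. Leaving out untreated replicate 1 gave -0.83 with an adjusted p of 0.070, and leaving out TGFβ replicate 1 or 2 gave adjusted p-values of 0.17 or 0.063. With all arrays it also failed to pass with robust variances and an intensity trend (0.094) and with the mean of all probe sets (0.05006).

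Pyruvate entry into mitochondria and the TCA cycle had 0 genes higher, 3 lower and 23 not passed among 26 measured (median -0.095). The share called was 11.5%, below the 13.6% of all genes and the 22.4% of those with a mean of at least 7. Mpc1, a subunit of the mitochondrial pyruvate carrier, fell by 0.60 (adjusted p = 0.012), which no longer passed when untreated replicate 2 was left out (-0.58, adjusted p = 0.052). Pcx, the pyruvate carboxylase, fell by 0.53 (adjusted p = 0.023), which no longer passed when untreated replicate 1 (0.11) or TGFβ replicate 1 (0.082) was left out. Sdha, a subunit of succinate dehydrogenase, fell by 0.33 (adjusted p = 0.034), and this call was lost when any 1 array was left out (adjusted p of 0.084 to 0.15) and with median centring (-0.31, adjusted p = 0.053). The pentose phosphate pathway, which draws sugar off glycolysis for NADPH and ribose, had 1 gene higher, 3 lower and 3 not passed among 7 (median -0.28). The share called in this short list was 57.1%. Rpia, the ribose phosphate isomerase, measured 10.14 and 9.89 in untreated cells and 8.95 and 9.03 after TGFβ and fell by 1.02 (adjusted p = 0.0032). Tkt, the transketolase that returns sugars to glycolysis, fell by 0.77 (adjusted p = 0.011). Rpe, the ribulose phosphate epimerase, fell by 0.42 (adjusted p = 0.034), a call lost when any 1 array was left out (adjusted p of 0.053 to 0.17). H6pd, the sugar phosphate dehydrogenase of the endoplasmic reticulum, rose by 0.47 (adjusted p = 0.022). It no longer passed when untreated replicate 1 (0.077), untreated replicate 2 (0.099) or TGFβ replicate 1 (0.075) was left out.

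**Figure D4:**
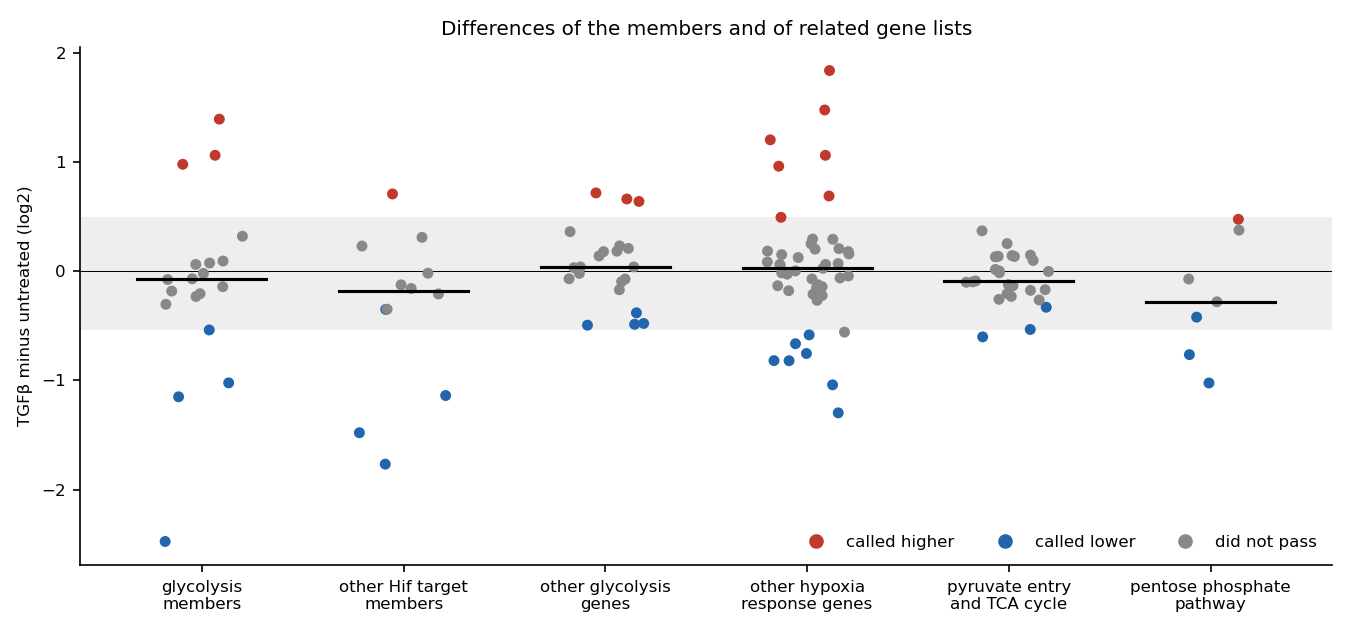
Difference TGFβ minus untreated (log2, vertical axis) of each gene in the 2 classes described here and in 4 lists of related genes; black bars are medians, red points were called higher, blue lower and grey did not pass. The grey band spans the 5th to 95th percentile of all 19938 genes, -0.53 to 0.49. Each list except pyruvate entry and TCA cycle has genes called higher and genes called lower, some of them inside the band.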

How the data were processed

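RNA of 4 samples was measured on Affymetrix arrays. The authors deposited log2 expression values per probe set, made by RMA with the R package oligo per the submitters' processing notes, while software versions, summary level and genome build are not given in those sources. No detection calls were used, and precision is limited by there being 4 arrays.

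Of 35556 probe sets, 21789 have 1 symbol in the array's gene table, 1621 several and 12146 none. RefSeq held 19856 of the 19939 Entrez identifiers, and 0 symbols changed. The brightest single-symbol probe set stood for each of 19938 genes, without further filtering. Whether the brightest probe sets of Bnip3, Ldhb, Pgk1 and Pgam1 read other copies of the gene was not tested.

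TGFβ and untreated arrays were compared in limma 3.58.1 (R 4.3.3), whose moderated test is two-sided (residual degrees of freedom 2, prior 3.77), with Benjamini-Hochberg adjustment across the 19938 genes and calls at an adjusted p under 0.05. Tested on simulated data with 200 of 19938 genes changed, the procedure recovered nearly all large changes and fewer of the smallest. It made 20.1 false calls per simulation, a rate above the nominal threshold. In the data 2720 genes were called, so the simulated setting differed and the rate in the data was not measured. With 2 arrays a group, the smallest two-sided p of an exact permutation is 0.333. Errors are SDs or standard errors, with 95% intervals of the fit. The labels call the samples biological replicates without naming cultures, so the p-values speak only of the spread among these samples, which may be technical.

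The members, lists and tests were chosen with earlier results of these data known. Every member is named, along with called genes of 4 related lists, up to 4 per direction with a brighter group mean of at least 7. Alternatives were another scaling (median centring, repeated quantile normalization), leaving out dim genes, averaging probe sets, robust variances with an intensity trend, a block for the replicate number, and omission of each array in turn.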

Additional observations from a re-analysis of the deposited data

How the results depend on the processing

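Of the 13 called genes among the 33, 9 passed under every alternative that tested them (11 each, 10 for Pdk1), and 0 changed direction. Leaving out 1 array cost the calls of Ldhb, Pgk1, Adm and Epas1 as given above. The replicate number as a block cost those of Ldhb (adjusted p = 0.086), Adm (0.094) and Epas1 (0.084), leaving 10 of 33 called, against 15 with an intensity trend and robust variances. Among the related genes named above, the block also cost the calls of Ak4, Insig2, Bhlhe41, Bpgm, Pgm1, Slc16a1, Rpe, Pcx and Sdha (adjusted p of 0.069 to 0.12). The number of other Hif targets called went from 5 to 3 without the dimmer 50% of genes, since Adm and Pdk1 were then not tested. The median difference stayed negative throughout, from -0.16 to -0.054 for the glycolysis genes and from -0.20 to -0.16 for the other Hif targets. Over all genes 2720 were called, against 1624 with the replicate block and 1535 to 2260 when 1 array was left out. Calls among other glycolysis genes went from 7 to 4 with the block and 3 to 4 without 1 array. Those of pyruvate entry and the TCA cycle went from 3 to 1 with the block and 1 to 2 without 1 array. Other hypoxia response genes went from 14 to 9 with the block, and the pentose phosphate pathway from 4 to 2 or 3 without 1 array. Both changes leave fewer residual degrees of freedom. The labels do not pair the samples, and the deviations of same-numbered samples correlated at -0.21 across 19938 genes. Crossing the numbers, chosen after seeing the data, called 3640 genes and 14 of the 33. Without detection calls, how far the signals of Adm, Ankrd37 and Slc2a3, whose means were under 7 in both groups, stood above background was not tested.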

Other observations

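Among the hypoxia response genes outside the 35, enzymes that modify collagen were looked at after their values were seen. P4ha2, a collagen prolyl hydroxylase subunit, measured 8.58 and 8.31 in untreated cells and 9.43 and 9.38 after TGFβ, a 1.95-fold rise in limma (adjusted p = 0.0043). Plod1, a collagen lysyl hydroxylase like Plod2, measured 9.95 on both untreated arrays and 10.73 and 10.55 after TGFβ, a 1.61-fold rise (adjusted p = 0.0065). P4ha1, another prolyl hydroxylase subunit, measured 9.85 and 10.02 against 10.04 and 9.94, with overlapping groups and an adjusted p of 0.84. Lox, which crosslinks collagen, measured 5.29 to 5.43 on all arrays. Gbe1, the glycogen branching enzyme and also a Hif target, measured 9.38 and 9.35 in untreated cells and 8.75 and 8.46 after TGFβ and fell by 0.75 (adjusted p = 0.010).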
